A study of Mus musculus with 8 samples.

Results

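The fatty acid binding protein isoforms Fabp1 to Fabp7 were examined in the brown fat of mice with a Prdm16 knockout and of wild-type controls. The 7 genes were chosen by name, after Fabp3 and Fabp5 had been seen to differ in opposite directions between the genotypes in these arrays. The array carried 8 probes for them, among 39429 probes under 31896 gene names. Values of Fabp3 and Fabp5 are therefore given as a description, with no test.

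The labels give 4 groups, which are brown adipose tissue of 6-week-old wild-type mice, 6-week-old Prdm16 knockout mice, 11-month-old wild-type mice and 11-month-old Prdm16 knockout mice, with 4 biological replicates each. Each of the 8 arrays carried a knockout and a wild-type sample of 1 age in separate dyes, with the knockout in Cy3 on 2 arrays and in Cy5 on the other 2 at each age. How Prdm16 was deleted, in which cells, and the strain and sex of the mice were not stated in the labels. Each age was a batch of its own, per the series text, and was hybridised on its own slide, so a difference between ages cannot be told apart from a difference between batches.

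Fatty acid binding proteins are small cytoplasmic proteins that fold into a barrel around a hydrophobic ligand and carry long-chain fatty acids between the plasma membrane, lipid droplets, mitochondria and the nucleus. The isoforms are known by the tissue in which each is abundant: Fabp1 in liver, Fabp2 in intestine, Fabp3 in heart and muscle, Fabp4 in adipocytes, Fabp5 in epidermis, Fabp6 in ileum, where it binds bile acids, and Fabp7 in brain. Fabp3 is also abundant in brown fat, where fatty acids are burned for heat, whereas Fabp4 and Fabp5 are the isoforms known from white adipocytes and macrophages.

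The 60-base probes behind the results lie at these positions of mouse build mm9, as the array design gives them. The Fabp3 probes are at chr4:129992643-129992702 (probe 1) and chr4:129992652-129992711 (probe 2) on the plus strand, the Fabp4 probe at chr3:10204452-10204511 on the minus strand and the Fabp5 probe at chr3:10016185-10016244 on the plus strand. No exon annotation of that build was used. The first 30 bases of each are shown because they identify what was measured, and capitals mark the bases that both Fabp3 probes hold.
Fabp3 probe 1: tttatttttTAAAACTGTATCCAAAGGGTG
Fabp3 probe 2: TAAAACTGTATCCAAAGGGTGCTCCAAGGT
Fabp4: aagaggcctggatggaaatttgcatcaaac
Fabp5: gtcaaatgcaacaaacagcttcacttcttt
The Fabp3 probes overlap by 51 bases, so they repeat 1 measurement and do not serve as independent evidence. No run longer than 10 bases is shared on the same strand between probes of different isoforms, with probe 1 standing for Fabp3. Probe 2 shares no run of 20 bases with a probe of another isoform. The Fabp5 probe shares 50 of its bases with a probe of another name on the array (NAP114472-1), and no other probe shares a run of 20 bases with Fabp1, Fabp2, Fabp4, Fabp6 or Fabp7.

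Of the 7 genes, 5 were bright enough to be fitted: Fabp2, Fabp3, Fabp4, Fabp5 and Fabp7, with 6 of the 8 probes. The filter asked for a signal well above background in 4 or more of the 16 measurements (8 arrays with 2 channels). Every ratio below is log2 of knockout over wild type, so that 1 is a 2-fold higher signal in the knockout, and fitted values carry the standard error (SE) of a limma model with a dye term (n = 4 arrays per age). In bulk tissue, fewer cells of a type and less RNA per cell cannot be told apart. No spot was saturated, and 61.2% to 68.2% of the 43020 spots per channel lay well above background. Across all kept probes, pairs of arrays had an r of 0.487 to 0.675 among young mice and of 0.675 to 0.883 among old mice, and the number of arrays limits the precision.

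Prdm16 RNA, the check of the labels, was lower in the knockout at both ages, by a fitted log2 ratio of -0.58 ± 0.15 at 6 weeks (limma adjusted p = 0.0407) and -0.50 ± 0.15 at 11 months (adjusted p = 0.0373). Each call ended on leaving out any of 5 single arrays, with adjusted p up to 0.150 and 0.156: replicates 1, 3 and 4 at 6 weeks and 1 and 3 at 11 months for the first, and replicates 1 and 4 at 6 weeks and 1, 3 and 4 at 11 months for the second. With arrays centred on their median the adjusted p was 0.231 and 0.352. Whether the probe lies within the deleted part is not given. Of the 15 brown fat markers checked, all were well above background in every wild-type sample at both ages. Ucp1, the uncoupling protein that defines brown fat, was fitted at 0.13 ± 0.44 at 6 weeks (adjusted p = 0.864). It fell by 4.05 ± 0.44 at 11 months (adjusted p = 0.000416). Without the 4 arrays whose skeletal muscle markers lay farthest from 0, the 6-week fit was 1.79. That fit leaves a single 6-week-old array, which stood at 0.59 with the dye of the main fit subtracted. Its dye coefficient rests on 11-month-old replicate 3, the array with the lowest dye-adjusted Ucp1 ratio (-5.93), so 1.79 was not read as a rise.

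**Figure D1:**
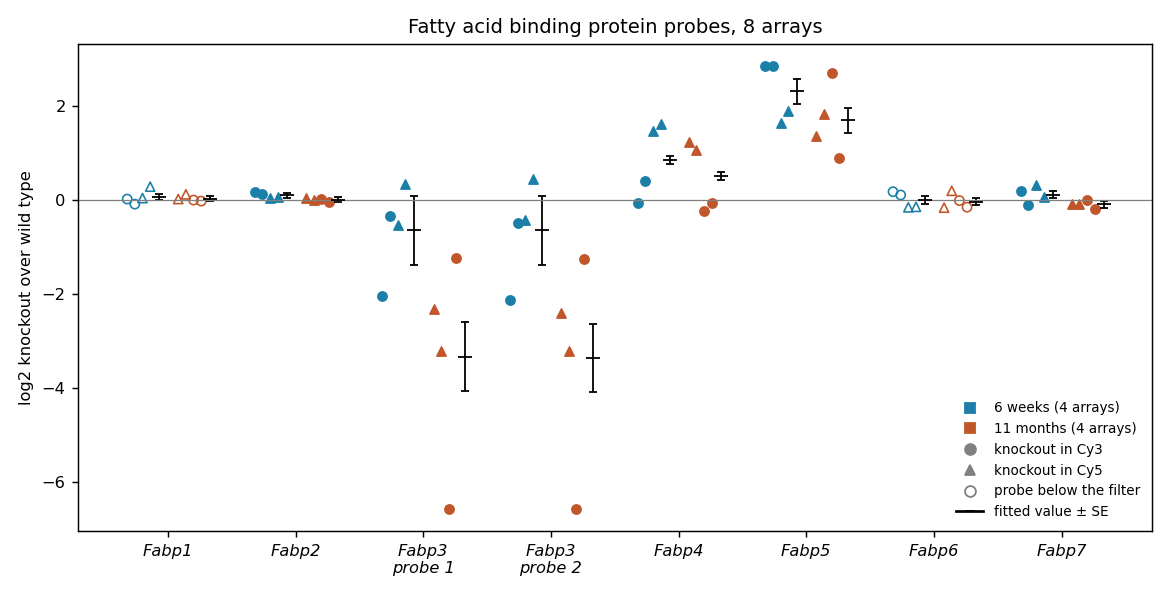
Log2 knockout over wild type (vertical axis) of the 8 probes of Fabp1 to Fabp7 in each of 4 arrays at 6 weeks (blue) and 11 months (orange); the marker shape gives the dye of the knockout, open markers are probes below the filter, and black bars are the fitted value ± SE. Fabp5 lies above 0 in all 8 arrays and Fabp3 below 0 in all 4 arrays at 11 months, while Fabp4 splits by dye and the other isoforms stay near 0.

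Fabp3, the heart and muscle isoform that brown fat also makes in quantity, was lower in knockout tissue at 11 months, by a fitted 10.3-fold. At 6 weeks its ratios (probe 2, the brighter) were -2.14, -0.50, -0.42 and 0.44 in replicates 1 to 4. After subtracting the fitted dye coefficient of 0.61 they were -1.53, 0.11, -1.03 and -0.16. Replicate 1 was the lowest on both scales, but the array above 0 was replicate 4 before the dye was taken into account and replicate 2 after it, so the arrays of young mice did not share a direction. At 11 months the ratios were -2.41, -3.23, -6.58 and -1.26. All 4 were below 0, replicate 3 was the lowest and replicate 4 the closest to 0, also after the dye was subtracted (-5.97 and -0.65). The fitted ratio was -0.65 ± 0.72 at 6 weeks and -3.37 ± 0.72 at 11 months, and the 11-month value was lower by 2.71 ± 1.02, a difference that was not tested because Fabp3 was chosen on these values. Probe 1 gave -0.65 ± 0.73 and -3.34 ± 0.73.

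The signal of each genotype was read from its own channel. Knockout signal of Fabp3, as normalized log2 intensity, was 14.7, 15.9, 15.8 and 16.3 in the 6-week-old replicates and 14.0, 13.9, 11.0 and 15.7 in the 11-month-old ones. Wild-type signal was 16.8, 16.4, 16.2 and 15.9 at 6 weeks and 16.4, 17.1, 17.6 and 16.9 at 11 months. The genotypes overlapped at 6 weeks and did not overlap at 11 months, where the highest knockout sample (15.7) lay below the lowest wild-type sample (16.4). The share of all probes without overlap was not counted, here or for the members below, so no separation is read as particular to a member. Mean signal was 15.7 ± 0.71 in knockout and 16.3 ± 0.39 in wild type at 6 weeks (SD, n = 4), and 13.6 ± 1.93 against 17.0 ± 0.50 at 11 months, so the knockout samples of old mice were the most spread of the 4 groups.

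The size of the Fabp3 difference depended on single arrays. Without 11-month-old replicate 3 the fitted 11-month ratio was -2.33, and without replicate 4 it was -4.45; the difference between ages was then -1.67 and -3.80. At 6 weeks it ranged from -0.96 without replicate 2 to -0.30 without replicate 1, with -0.85 without replicate 4 and -0.50 without replicate 3. The direction held in all 18 alternatives tried at each age, but many of these could not change the fitted ratio. With dyes balanced within each age, other dye terms, other filters on dim probes or leaving out arrays of the other age return the same ratio. Fabp3 was also chosen on its direction, so the count is a description.

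**Figure D2:**
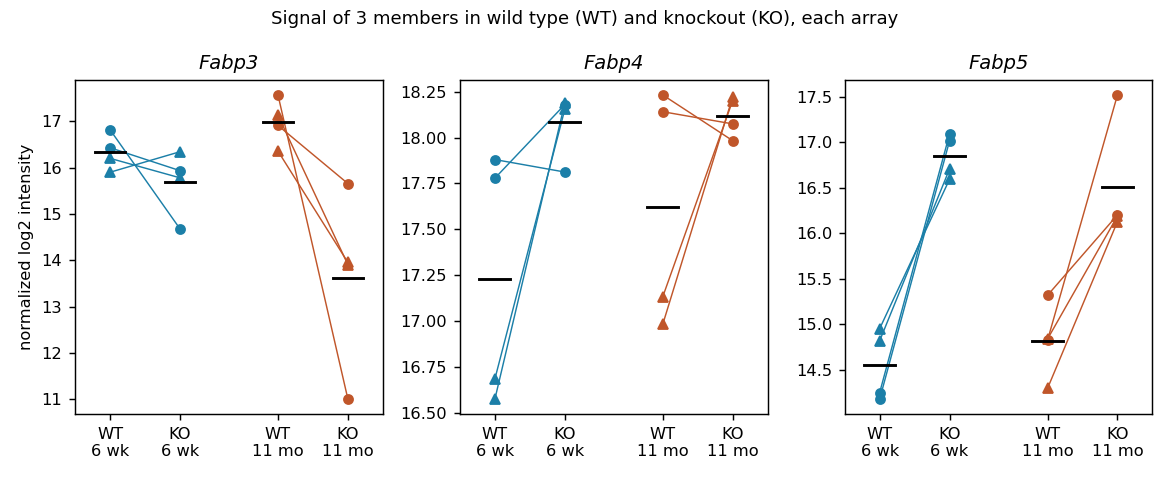
Normalized log2 intensity (vertical axis, a separate range in each panel) of Fabp3, Fabp4 and Fabp5 in wild type (WT) and knockout (KO) at 6 weeks (blue) and 11 months (orange); a line joins the samples of 1 array, circles are arrays with the knockout in Cy3, triangles with it in Cy5, and black bars are means of 4 samples. Fabp5 lines all rise, Fabp3 lines all fall at 11 months, and Fabp4 lines rise steeply only on arrays with the knockout in Cy5.

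Fabp5, the epidermal isoform, was higher in knockout tissue in every array at both ages, by a fitted 4.95-fold at 6 weeks and 3.23-fold at 11 months. Its ratios were 2.85, 2.84, 1.64 and 1.89 in 6-week-old replicates 1 to 4 and 1.35, 1.83, 2.70 and 0.88 in the 11-month-old ones. The young arrays fell into a higher and a lower pair, which are the arrays with the knockout in Cy3 and in Cy5, and among the old ones replicate 3 was highest and replicate 4 lowest. The fitted ratio was 2.31 ± 0.27 at 6 weeks and 1.69 ± 0.27 at 11 months. The difference between ages, -0.61 ± 0.38, became -0.16 without 11-month-old replicate 4 and -0.89 without replicate 3.

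Knockout signal of Fabp5 lay above wild-type signal without overlap at either age, which restates the direction it was chosen on. It was 17.1, 17.0, 16.6 and 16.7 in the 6-week-old and 16.2, 16.1, 17.5 and 16.2 in the 11-month-old knockout samples. In wild type it was 14.2, 14.2, 14.9 and 14.8 at 6 weeks and 14.8, 14.3, 14.8 and 15.3 at 11 months. The lowest knockout sample of any age (16.1) was thus above the highest wild-type sample (15.3).

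Other probes related to Fabp5 gave near values. The probe that shares 50 bases with it was fitted at 2.31 ± 0.27 and 1.62 ± 0.27. A probe that the array names Fabp5l2, a Fabp5-like sequence, had ratios of 3.19, 3.02, 1.81 and 2.09 at 6 weeks and 1.47, 1.99, 2.79 and 0.79 at 11 months. The arrays stood in the order of the Fabp5 ratios at both ages, although 6-week-old replicates 1 and 2 were nearly equal for Fabp5. Whether these probes hybridise to Fabp5 RNA was not tested, and they are not counted as further evidence.

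At 11 months Fabp3 and Fabp5 stood at opposite ends of the same arrays. There replicate 3 had the lowest Fabp3 ratio (-6.58) with the highest Fabp5 ratio (2.70), and replicate 4 had the highest Fabp3 ratio (-1.26) with the lowest Fabp5 ratio (0.88). At 6 weeks replicate 1 had the lowest Fabp3 ratio (-2.14) and, by a margin under the spread between arrays, the highest Fabp5 ratio (2.85). The other end did not match at 6 weeks: the lowest Fabp5 ratio was in replicate 3 (1.64), and the highest Fabp3 ratio in replicate 4 (0.44), or, with the dye subtracted, in replicate 2 (0.11), where Fabp5 was 2.52 on the same scale. Both genes were measured on the same 8 hybridisations, so this is a description of those samples and no test was made of it.

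Fabp4, the adipocyte isoform and one of the most used markers of mature fat cells, was fitted higher in the knockout at both ages with the dye term. The fitted change was 1.81-fold at 6 weeks and 1.41-fold at 11 months, and it was unequal between the dyes. The ratios were -0.07, 0.40, 1.47 and 1.61 in 6-week-old replicates 1 to 4 and 1.24, 1.07, -0.25 and -0.07 in the 11-month-old ones. They split by dye: the 4 arrays with the knockout in Cy5 lay between 1.07 and 1.61, and the 4 with the knockout in Cy3 between -0.25 and 0.40. Uncorrected, 3 of 4 arrays were higher at 6 weeks and 2 of 4 at 11 months. After subtracting the fitted dye coefficient of 0.67, all 4 were higher at each age, at 0.60 to 1.07 and at 0.40 to 0.61.

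The fitted ratio of Fabp4 was 0.85 ± 0.08 at 6 weeks (limma adjusted p = 0.00166) and 0.50 ± 0.08 at 11 months (adjusted p = 0.00304). The difference between ages, -0.36 ± 0.12, did not pass (adjusted p = 0.0769), although it did without 6-week-old replicate 1 (-0.46, adjusted p = 0.0298). Without a dye coefficient the same ratios had adjusted p of 0.134 and 0.308, and with arrays centred on their median in place of loess the 11-month ratio was 0.52 (adjusted p = 0.119). Knockout signal was 17.8, 18.2, 18.2 and 18.2 at 6 weeks and 18.2, 18.2, 18.0 and 18.1 at 11 months. Wild-type signal was 17.9, 17.8, 16.7 and 16.6 at 6 weeks and 17.0, 17.1, 18.2 and 18.1 at 11 months. The genotypes overlapped at both ages, and the wild-type signal differed between dyes more than the knockout signal did. Compared within a dye, across arrays, Cy5 signal at 11 months was 18.22 and 18.20 in knockout and 18.23 and 18.14 in wild type. In Cy3 it was 17.98 and 18.07 against 16.98 and 17.13. At 6 weeks it was 18.15 and 18.19 against 17.88 and 17.78 in Cy5, and 17.81 and 18.18 against 16.68 and 16.57 in Cy3. The shared dye coefficient averages over the dyes, so the 11-month rise rests on Cy3. Why the dyes differ was not tested.

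Fabp2, Fabp4 and Fabp7 were the members whose values had not chosen the family. Of these, 1 (Fabp4) was called at 6 weeks, where 16.4% of the 21736 genes tested were called, and 1 (Fabp4) at 11 months, where 34.5% were and where Fabp4 alone of the 3 was well above background in both genotypes. With the scanner software's own ratios Fabp2 was called at 11 months too. Fabp4 did not pass the limma test of the difference between ages, which 18.1% of all genes passed, and its unadjusted p was under 0.05. With arrays centred on their median, 70.9% of the genes called at 11 months were higher, against 51.6% after loess; at 6 weeks the shares were 69.6% and 56.4%, and for the difference 60.5% and 46.5%.

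The remaining isoforms sat at or near the background of the array. Fabp2, the intestinal isoform, had ratios of 0.17, 0.13, 0.04 and 0.06 at 6 weeks and 0.04, -0.01, 0.02 and -0.04 at 11 months. Its knockout and wild-type signals met without overlapping at 6 weeks, with 7.17 as the lowest knockout and the highest wild-type value, and overlapped at 11 months. Neither its fitted ratio at 6 weeks (0.10 ± 0.05, adjusted p = 0.214) nor that at 11 months (0.00 ± 0.05, adjusted p = 0.973) passed. With the scanner software's ratios in place of normexp and loess, the 11-month ratio was 0.31 and passed (adjusted p = 0.0144); over the other alternatives at that age the adjusted p was 0.335 to 0.995. Its signal was well above background in all 4 knockout samples of both ages and in the 4 young wild-type samples, but in none of the old wild-type samples, so at 11 months its ratio has only a bound, which leaves no fold to give.

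Fabp7, the brain isoform, also found in glia and Schwann cells, was fitted at 0.11 ± 0.07 at 6 weeks (adjusted p = 0.334). Its ratios were 0.18, -0.11, 0.30 and 0.07 at 6 weeks and -0.09, -0.08, -0.01 and -0.20 at 11 months, and the genotypes overlapped at both ages. It was well above background in all 8 young samples and in none of the 8 old ones, so no fold or test is given for it at 11 months or between ages. That loss of signal cannot be told apart from the change of slide and software. Fabp1, the liver isoform, was well above background in 0 of 16 channel measurements, with ratios between -0.09 and 0.28. Fabp6, the ileal bile acid carrier, reached it in 2 of 16, with ratios between -0.17 and 0.19, and no fold is given for either.

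Of 9 other carriers of the same barrel fold (fatty acid, retinol and retinoic acid binding proteins), 5 were measured. By limma's test none was called at 6 weeks, against 16.4% of all genes, with 2 at an unadjusted p under 0.05, and 1 was called at 11 months, against 34.5%. Fabp9, known from testis, was fitted at 0.12 ± 0.08 (adjusted p = 0.332; 0.55, adjusted p = 0.0220, with the scanner ratios) and 0.05 ± 0.08 (adjusted p = 0.652). Fabp12 was fitted at 0.27 ± 0.10 (adjusted p = 0.0974) and 0.23 ± 0.10 (adjusted p = 0.108). Fabp12 was called higher at both ages with a dye coefficient for each age (adjusted p = 0.0170 and 0.0169). At 6 weeks it was also called with each age modelled alone (0.0324). At 11 months it was also called with the deposited values (0.43, adjusted p = 0.0375). Without the same 4 arrays its 6-week value, which then rests on a single array, was 0.63. Crabp2, a retinoic acid carrier, was the call at 11 months (-0.24 ± 0.08, adjusted p = 0.0455; 6 weeks, also -0.24, adjusted p = 0.0678, 0.0491 without 11-month-old replicate 1, 0.0388 with each age modelled alone and 0.0243 with a dye coefficient for each age); leaving out any array other than 6-week-old replicate 2 ended it, with adjusted p up to 0.193, and with median centring it was -0.02 (adjusted p = 0.884).

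Of the 10 measured genes beside the members in RefSeq order, 1 was called at 6 weeks, against 16.4% of all genes, and 2 at 11 months, against 34.5%. Next to Fabp3 on chromosome 4, Tinagl1 was called lower at 6 weeks (-0.87 ± 0.11, adjusted p = 0.00413) but not at 11 months (-0.27 ± 0.11, adjusted p = 0.109), where it passed without 6-week-old replicate 1, with each age modelled alone and without the same 4 arrays (adjusted p = 0.0208, 0.0441 and 0.0154), while Zcchc17 was called higher at 11 months (0.36 ± 0.08, adjusted p = 0.00881), and Serinc2, Snrnp40 and Nkain1 were not called at either age. Fabp4 and Fabp5 lie in a cluster on chromosome 3 with Fabp9, Fabp12 and Pmp2. Of the other measured genes there, Zfp704 was called at 11 months (0.25 ± 0.08, adjusted p = 0.0402), a call that ended without any of 5 arrays (replicates 3 and 4 at 6 weeks, and 1, 3 and 4 at 11 months; adjusted p up to 0.157), and Fabp9, Fabp12, Impa1 and Zbtb10 were not called at either age.

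Only the 1150 genes with a RefSeq symbol and at least a 2-fold fitted change at 1 age were ranked for likeness to a member. The most alike were those with the highest Pearson's r of the dye-adjusted ratios over the 8 arrays. For Fabp3 these were S100b (r = 0.994), a calcium-binding protein of adipocytes and glia, Plin5 (r = 0.980), a lipid droplet protein, Cox8b (r = 0.977), a subunit of cytochrome oxidase, Ech1 (r = 0.973), an enzyme of unsaturated fatty acid oxidation, and Slc25a42 (r = 0.973), a mitochondrial carrier. Their fitted ratios ran from -0.96 to -0.40 at 6 weeks and from -2.81 to -1.36 at 11 months. For Fabp5 they were Acss2 (r = 0.944), an acetyl-CoA synthetase, Arhgdig (r = 0.931), Aacs (r = 0.926), an acetoacetyl-CoA synthetase, Recql4 (r = 0.915) and Thrsp (r = 0.915), a lipogenic regulator. Arhgdig was lower in the knockout at both ages (-1.65 and -2.46) and the other 4 were higher at 6 weeks (1.103 to 1.66). At 11 months Recql4 was higher (1.32) and Acss2, Aacs and Thrsp, fitted at 0.20 to 0.52, did not pass (adjusted p = 0.208, 0.0569 and 0.621), so r compares the rise and fall over arrays and not the level of the ratio.

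**Figure D3:**
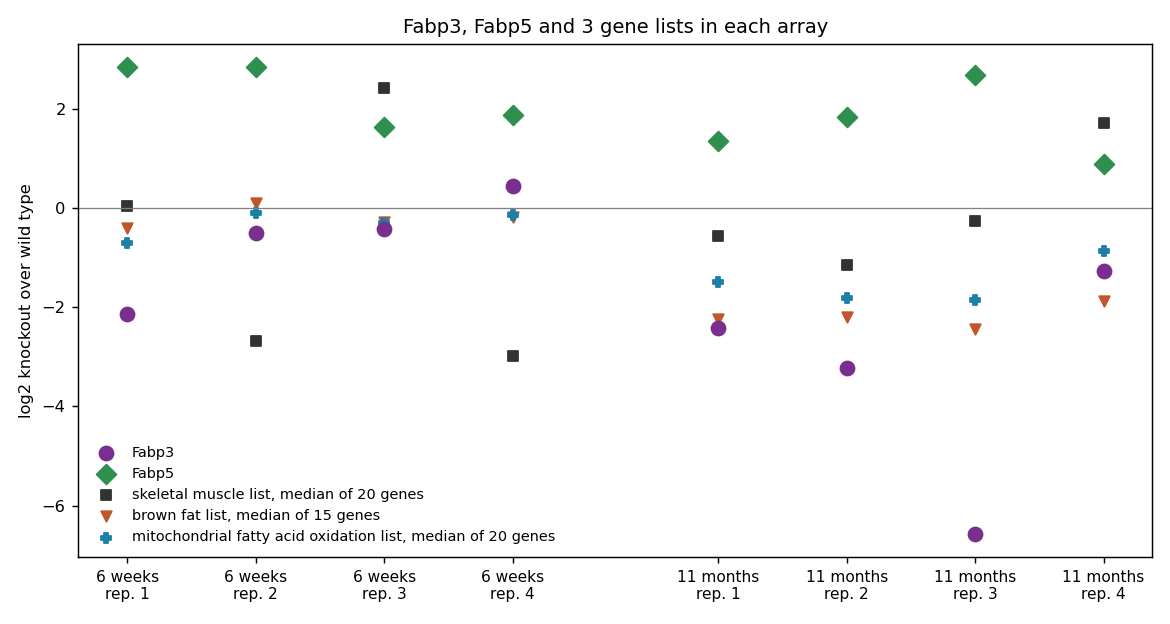
Log2 knockout over wild type (vertical axis) in each of the 8 arrays for Fabp3 (purple), Fabp5 (green) and the median of 20 skeletal muscle markers, 15 brown fat markers and 20 mitochondrial fatty acid oxidation genes. The muscle median spans -2.99 to 2.42 at 6 weeks, whereas the brown fat and oxidation medians are below -0.8 in all 4 arrays at 11 months.

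Fabp3 is a gene of muscle as well as of brown fat, and skeletal muscle RNA differed strongly between samples. The median ratio of 20 skeletal muscle markers was 0.05, -2.67, 2.42 and -2.99 in 6-week-old replicates 1 to 4 and -0.56, -1.14, -0.25 and 1.72 in the 11-month-old ones. None of the 20 was called at either age, with 1 at an unadjusted p under 0.05 at 6 weeks and 0 at 11 months. Their summed signal (log2) ranged from 13.4 to 15.6 in knockout and from 12.8 to 17.6 in wild type at 6 weeks, and from 16.6 to 19.9 and from 16.8 to 19.3 at 11 months. All 4 young wild-type samples were well above background for 10 of the 20 and all 4 young knockout samples for 16, against 19 for each genotype at 11 months. At 6 weeks the arrays with the lowest muscle medians, replicates 4 and 2, had Fabp3 ratios of 0.44 and -0.50 (-0.16 and 0.11 with the dye subtracted), and replicate 3, with the highest, had -0.42 (-1.03). At 11 months replicate 4 had both the highest muscle median and the highest Fabp3 ratio. The other end did not match: the lowest muscle median was in replicate 2 (-1.14, Fabp3 ratio -3.23). The lowest Fabp3 ratio (-6.58) was in replicate 3, where the muscle median was -0.25. A fit was also made without the 4 arrays with the muscle medians farthest from 0. These were 6-week-old replicates 2, 3 and 4 and 11-month-old replicate 4. Fabp3 was then fitted at -0.26 and -4.70, Fabp5 at 2.29 and 2.15, and Fabp4 at 0.63 and 0.45. The fitted muscle median was -0.22 and -0.52, against -0.83 and -0.03 with all arrays, on arrays chosen by these medians. The single 6-week-old array left, replicate 1, is assumed to vary like the others. Its values are shifted by a dye coefficient that rests on 11-month-old replicate 3 against replicates 1 and 2. The Fabp3 ratio of 6-week-old replicate 1 was -2.14 before that shift, so the -0.26 was not read as a smaller difference.

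Brown fat markers moved with Fabp3 at 11 months. The median ratio of the 15 markers was -0.40, 0.11, -0.28 and -0.18 at 6 weeks and -2.24, -2.20, -2.43 and -1.87 at 11 months; 1 was higher and 2 lower at 6 weeks, and 1 was higher and 11 lower at 11 months. White fat markers were higher in 9 of 11 at 6 weeks and 10 of 11 at 11 months, and general adipocyte markers in 6 and 8 of 14, with none lower. Over all genes tested, 16.4% were called at 6 weeks and 34.5% at 11 months. With all arrays the general adipocyte median was 0.26 at 6 weeks and 0.56 at 11 months. Without the 4 arrays named above, which leaves a single 6-week-old array, it was 0.03 and 0.48. In that fit the brown fat median was -0.15 and -2.40, and the white fat median 2.32 and 2.23. The part of any of these lists in the Fabp values was not tested.

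Fabp4 and Fabp5 are also made by macrophages and capillary endothelium. Of 14 macrophage and myeloid markers, 1 was higher and 1 lower at 6 weeks and 9 were higher at 11 months, among them Cd14, an endotoxin co-receptor (1.05 ± 0.14, adjusted p = 0.00113). Their summed signal (log2) was 14.5 to 14.9 in knockout and 14.5 to 15.0 in wild type at 6 weeks, and 14.4 to 15.3 and 14.2 to 14.6 at 11 months. Of 12 endothelial markers, 3 were lower at 6 weeks and 1 was higher at 11 months. Endothelial summed signal was 16.02 to 16.21 in knockout and 16.26 to 16.36 in wild type at 6 weeks. At 11 months it was 16.03 to 16.46 and 15.94 to 16.21. Over all genes tested, 16.4% were called at 6 weeks and 34.5% at 11 months.

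Of 12 skin markers, which bear on Fabp5, 8 were measured (Krt1, Krt15, Dsg1a and Dsp were not), with 1 higher at 6 weeks and 0 called at 11 months, where 0 had an unadjusted p under 0.05. Their summed signal was 13.1 to 13.3 in knockout and 13.2 to 13.3 in wild type at 6 weeks, and 13.1 to 13.7 and 13.2 to 13.3 at 11 months. Of 10 Schwann cell and nerve markers, which bear on Fabp7, 1 was higher and 2 lower at 6 weeks and 1 was higher and 1 lower (S100b, named above) at 11 months, with summed signal of 14.1 to 14.5 in knockout and 14.1 to 14.7 in wild type at 6 weeks, and 14.1 to 14.6 and 14.5 to 15.3 at 11 months. Only 4 of 12 hepatocyte and enterocyte markers were measured, and Alb and Apob were not among them. By limma's test Cyp2e1 was higher at 6 weeks (1.74 ± 0.25, adjusted p = 0.00534) and 11 months (4.11 ± 0.25, adjusted p = 4.03e-05). Vil1 was lower at 11 months (-0.49 ± 0.13, adjusted p = 0.0224), where 0 knockout samples were well above background for it. Over all genes tested, 16.4% were called at 6 weeks and 34.5% at 11 months. The part of these cell types in the Fabp values was not tested.

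**Figure D4:**
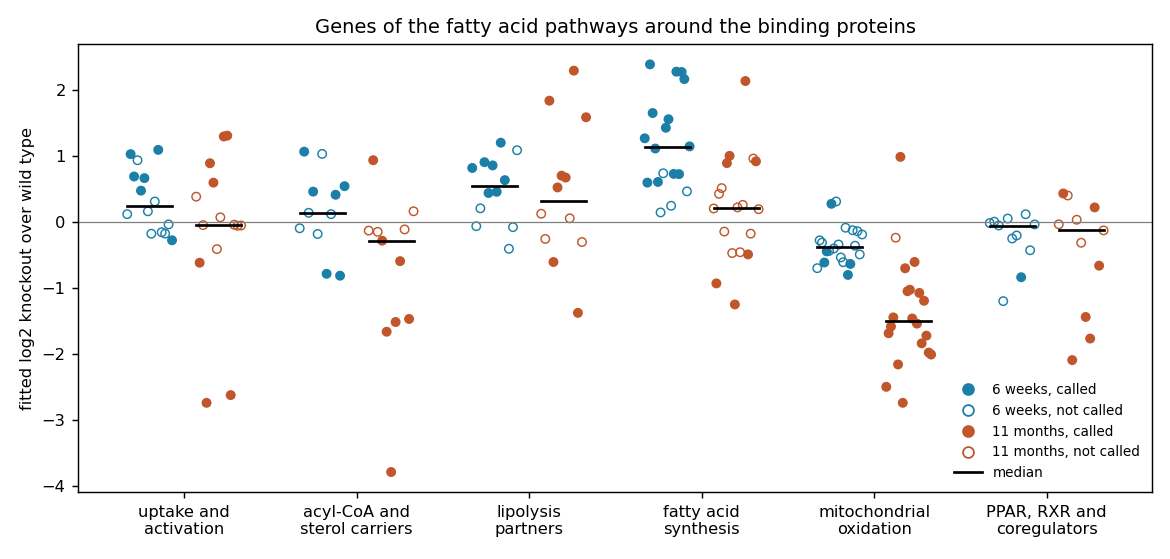
Fitted log2 knockout over wild type (vertical axis) of the measured genes of 6 pathway lists at 6 weeks (blue) and 11 months (orange); filled points passed the adjusted p threshold of 0.05, open points did not, and black bars are medians. Fatty acid synthesis genes lie mostly above 0 at 6 weeks and mitochondrial oxidation genes mostly below 0 at 11 months.

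Fatty acids reach these carriers by uptake and activation and leave them for storage, synthesis or oxidation. Of 14 measured uptake and activation genes, 5 were higher and 1 lower at 6 weeks (median log2 ratio 0.24). At 11 months 4 were higher and 3 lower (median -0.04). Over all genes tested the medians were -0.00 and 0.01, and 16.4% and 34.5% were called. The same shares stand beside the counts of the lists that follow. Slc27a1, a fatty acid transporter, rose by 1.097 ± 0.055 at 6 weeks (adjusted p = 0.000288) and 1.313 ± 0.055 at 11 months (adjusted p = 1.28e-05). Cd36, the membrane receptor that takes up long-chain fatty acids, rose by 0.67 ± 0.10 at 6 weeks (adjusted p = 0.00705). The fit without the 4 arrays named above leaves a single 6-week-old array and was not used for this call. Acsl5, an acyl-CoA synthetase, fell by 2.74 ± 0.35 at 11 months (adjusted p = 0.000829).

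Carriers of acyl-CoA and sterols, with the thioesterases that release fatty acids from CoA, numbered 11. At 6 weeks 4 were higher and 2 lower, with Acbd4, an acyl-CoA binding protein, higher by 1.07 ± 0.09 (adjusted p = 0.00109). At 11 months 1 was higher and 6 were lower, with Acot11, a thioesterase, lower by the widest margin (-3.79 ± 0.40, adjusted p = 0.000373).

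Fabp4 binds hormone-sensitive lipase and collects the fatty acids it releases. Of 12 lipolysis partners, 7 were higher and 0 lower at 6 weeks (median 0.55), and 6 were higher and 2 lower at 11 months (median 0.33). Plin2, a lipid droplet coat protein, rose by 1.21 ± 0.20 at 6 weeks (adjusted p = 0.00894; 0.0666 with median centring), and Plin4, of the same family, by 2.30 ± 0.16 at 11 months (adjusted p = 6.82e-05). Lipe, which encodes hormone-sensitive lipase and was named after its values were seen, had ratios of 0.44 ± 0.09 (adjusted p = 0.0201) and 0.53 ± 0.09 (adjusted p = 0.00399), near those of Fabp4 at 11 months. Its call at 6 weeks ended without replicate 1, 2 or 3 (adjusted p up to 0.0807), and both its calls ended without a dye coefficient (adjusted p = 0.170 and 0.0720) or with median centring (0.127 and 0.0575).

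Fatty acid binding proteins deliver ligands to the nuclear receptors of the PPAR family, whose targets include Fabp3 and Fabp4. Of 11 PPAR and RXR receptors and coregulators, 1 was lower at 6 weeks (median -0.05), and 2 were higher and 4 lower at 11 months (median -0.12). Ppara, the receptor of oxidative tissues, was fitted at -1.20 ± 0.44 at 6 weeks (limma adjusted p = 0.102). It passed there without 11-month-old replicate 4 (adjusted p = 0.0205) and with each age modelled alone (adjusted p = 0.0475). At 11 months it fell by 2.09 ± 0.44 (adjusted p = 0.00864). Ppargc1b, a coactivator, fell by 0.83 ± 0.14 at 6 weeks (adjusted p = 0.0107; 0.0530 to 0.0867 with the deposited values, median centring or the scanner ratios) and by 1.76 ± 0.14 at 11 months (adjusted p = 0.000118).

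The difference between ages passed in 7 of 18 measured fatty acid synthesis genes and 14 of 20 mitochondrial oxidation genes, against 18.1% of all genes. Of the synthesis genes, 14 were higher and 0 lower at 6 weeks (median 1.13), led by Acly, ATP citrate lyase (2.39 ± 0.45, adjusted p = 0.0137; 0.0609 and 0.0727 without replicate 1 or 2), and 4 were higher and 3 lower at 11 months (median 0.22). Of the oxidation genes, 1 was higher and 4 lower at 6 weeks (median -0.38), and 1 was higher and 18 lower at 11 months (median -1.50), led by Cpt1b, which carries acyl groups into mitochondria (-2.74 ± 0.35, adjusted p = 0.000894). The median oxidation ratio by array at 11 months was -1.50, -1.81, -1.84 and -0.86 in replicates 1 to 4. It was closest to 0 in the array with the highest Fabp3 ratio. Replicates 2 and 3 were nearly equal in it, although their Fabp3 ratios were -3.23 and -6.58. With median centring the count called at 6 weeks was 8 of 18 for synthesis and 0 of 20 for oxidation, and the age difference passed in 1 and 0 genes. Without the 4 arrays named above the oxidation median was -0.62 at 6 weeks, from a single array, and -1.74 at 11 months. The synthesis median was then 1.53 and 0.47.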

How the data were processed

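Brown adipose tissue RNA was measured on 8 2-colour Agilent arrays. Each deposited scanner file lists spot by spot, per the file headers, an intensity for foreground (mean) and background (median) and a log10 ratio of Cy5 over Cy3 from Feature Extraction 10.5.1.1 (6 weeks) or 10.10.1.1 (11 months). The deposited values per array are log2 ratios; the submitters' processing notes name limma, and the settings are not stated there. Set against the scanner ratios (r = 0.856 to 0.914), the deposited values run as knockout over wild type.

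Intensities were background-corrected (normexp, offset 50), normalized by loess within each array and oriented as knockout over wild type from the labelled dyes (limma 3.58.1, R 4.3.3, with the data.table package at version 1.17.8). Between 131 and 247 spots per array with non-uniform or outlier flags were left out, and replicate spots were averaged. Kept were 26842 probes that lay well above background in 4 or more of 16 measurements and had values on 3 or more arrays of each age. One model had a coefficient per age and a shared dye coefficient (5 residual degrees of freedom), tested on simulated data; p-values were adjusted by Benjamini-Hochberg over all kept probes, and a gene was called below 0.05 by its brightest probe. Signal per channel is after quantile normalization of mean intensities.

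The members, the gene lists and the alternatives were chosen with earlier results of these data known. Genes named outside the family were Prdm16, genes of the lists, the 5 genes most alike to Fabp3 and to Fabp5, and 3 protein-coding neighbours on each side (RefSeq, GRCm38.p6, for names and order only). From a list, genes were drawn from the 4 called with the largest change (the top 2 where fewer than 2 were called). Not all of these were named, and in the uptake and activation list some with larger changes were passed over. Lipe was named outside this rule.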

Additional observations from a re-analysis of the deposited data

Results flagged for a closer look

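Over the fitted probes of Fabp1 to Fabp7 and the other genes named, the dye-adjusted log2 ratio of 1 array lay apart from the rest of its age in 5 of 76 sets of 4 arrays, where chance flags about 1 in 20. None of the 5 was a probe of Fabp1 to Fabp7. They were Prdm16 in 11-month-old replicate 2 (0.057, the others -0.72 to -0.66), Slc27a1 in 6-week-old replicate 2 (1.19, the others 1.06 to 1.07), Aacs in 6-week-old replicate 1 (1.42, the others 0.95 to 1.03), Acly in 11-month-old replicate 4 (-1.47, the others 0.89 to 1.23) and Plin4 in the same array (2.78, the others 2.07 to 2.19). The Acly and Plin4 array is the one with the Fabp3 ratio closest to 0 and the lowest Fabp5 ratio.

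The difference between the ages (11-month-old minus 6-week-old log2 ratio) passed limma's test at an adjusted p below 0.05 in 9 of the genes named. It was negative for Ucp1 (-4.18), Acot11 (-4.83), Acsl5 (-3.68), Cpt1b (-2.34), Cox8b (-1.85), Plin2 (-1.15) and Ppargc1b (-0.93), and positive for Plin4 (1.66) and Tinagl1 (0.60). Age and batch cannot be told apart in these values.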

How the results depend on the processing

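Fabp3 and Fabp5 kept their direction at both ages and in the difference between ages under each alternative tried. The family was chosen on these directions, and many alternatives return the same fitted ratio because the dyes are balanced within each age. Fabp4 kept its direction; its calls ended with no dye coefficient (0.85 and 0.50, adjusted p = 0.134 and 0.308) and, at 11 months, with median centring (0.52, adjusted p = 0.119), and its age difference passed without 6-week-old replicate 1. Leaving out each array in turn gave 0.77 to 0.95 and 0.46 to 0.54 for Fabp4 at the 2 ages, and -0.46 to -0.27 for the difference. For uncalled values near 0 the sign turned: Fabp2 at 11 months (-0.091 with median centring, -0.020 to 0.028 with 1 array left out), its age difference (0.11 with scanner ratios), Fabp9 at 11 months (-0.079 with median centring, -0.0393 without the 4 arrays with the muscle medians farthest from 0, -0.0396 to 0.13 with 1 array left out), Ucp1 at 6 weeks (-0.085 to 0.41 with 1 array left out) and Zfp704 at 6 weeks (0.062 without the 4 arrays). Fabp2 at 11 months and Fabp9 at 6 weeks were called with scanner ratios (0.31 and 0.55). Fabp12 was called at both ages with a dye coefficient for each age. It was also called with each age modelled alone (6 weeks) and with the deposited values (11 months). Ucp1 at 6 weeks was 1.79 without the 4 arrays, a fit that leaves a single 6-week-old array. The causes were not tested. Genes called at 6 weeks numbered 3566, against 2276 with scanner ratios, 991 with median centring and 1231 to 4338 with 1 array left out. At 11 months they numbered 7504, against 4911 with median centring and 4959 to 7615. For the difference they numbered 3927, against 521 with median centring, 2503 with no dye coefficient, 2598 without the 4 arrays, an alternative added after the data were seen, and 2063 to 3183. Median centring changed the calls within lists by over 1.5 times, from 6 to 1 (acyl-CoA carriers), 7 to 3 (lipolysis), 1 to 0 (PPAR and RXR), 5 to 0 (oxidation), 14 to 8 (synthesis), 3 to 0 (endothelial), 2 to 1 (macrophage), 1 to 0 (skin) and 3 to 1 (Schwann cell) at 6 weeks, and from 8 to 4 (lipolysis), 7 to 4 (synthesis) and 1 to 2 (endothelial) at 11 months. Counts of calls without the 4 arrays, an alternative added after the data were seen, are not given, as that fit leaves a single 6-week-old array. With the replicate number as a replicate block the difference called 4272 genes and changed no call of a Fabp probe. Same-numbered arrays correlated at 0.176 to 0.461 with the shared dye coefficient but at -0.06 to 0.09 with a dye coefficient for each age, so the number was not taken as a pairing. Fabp1, Fabp2, Fabp6 and Fabp7 lay near background, which limits what could be seen of them.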
